A study of Mus musculus with 2 samples.

Results

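The 9 genes described here encode insulin-like growth factors (Igf1, Igf2), their receptors (Igf1r, Igf2r) and their binding proteins (Igfbp3, Igfbp4, Igfbp5, Igfbp6, Igfbp7). They were taken by gene symbol from the 32285 genes of a droplet single-cell RNA sequencing study of mouse skull defects, and were read across cell classes and both scaffolds. They were picked with their levels and their ratios in these libraries already known, so the levels and ratios below are descriptions and none was tested. The Gel50_CS50 and Gel100 groups were female Balb/c mice aged 6 weeks, each with a drilled circular skull defect of 3.5 mm, without periosteum, that was filled with an acellular scaffold of that name. The labels do not spell out the scaffold names. At week 1 the cells of 5 mice per scaffold were pooled, freed with an enzyme mixture and sorted for viability, which gave 1 library per group. The mice of a pool cannot be told apart, so every difference below is between 2 libraries, with no replicate check.

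Insulin-like growth factors are secreted peptides that bind Igf1r, a receptor tyrosine kinase, which signals for growth and survival through the insulin receptor substrates, PI3K and Akt. Igf2r has no kinase: it carries Igf2 and lysosomal enzymes to lysosomes. The binding proteins hold the peptides in fluid and in the matrix until proteases release them, and bone matrix is a known store of both the growth factors and their binding proteins.

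The Gel50_CS50 library kept 7206 cells with a median of 16506.5 unique molecular identifiers (UMIs, 1 per captured RNA molecule), and the Gel100 library kept 7570 cells with a median of 12716. Cells under 1000 UMIs made up 1.42% of Gel50_CS50 and 11.2% of Gel100, and 24 barcodes were found in both libraries. Of 32 clusters, those that passed the marker rules fell into 9 classes, and all fixed markers of a class were detected in it in both libraries. Gel50_CS50 held 658 stromal cells, 3426 macrophages and monocytes, 1401 neutrophils, 505 T and NK cells, 260 plasmacytoid dendritic cells, 167 conventional dendritic cells and 57 endothelial cells. Gel100 held 255 stromal cells, 3887 macrophages and monocytes, 614 neutrophils, 1086 T and NK cells, 475 plasmacytoid dendritic cells, 262 conventional dendritic cells and 64 endothelial cells. Different clusters were the largest of a class in the libraries. Among macrophages it was cluster 2 (Mrc1, C1qa) in Gel50_CS50 and cluster 0 (Gm15056, Ms4a7) in Gel100, and among neutrophils cluster 7 (S100a9, Lcn2) in Gel50_CS50 and cluster 11 (S100a9, Hdc) in Gel100.

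Levels are a gene's UMIs scaled to a total of 1e+06 UMIs (CPM) per class and library. The 3′ kit counts 1 end per molecule, so CPM was not divided by transcript length. The log2 ratio is Gel50_CS50 over Gel100, its 95% interval covers counting error only, and a gene is called higher or lower where that interval lies wholly beyond 1.5-fold. A gene counts as measured in a class where its 2 levels average 20 CPM or more. That limit was set for classes, and single clusters are described below at any level. By that limit all 9 genes were measured in stromal cells, 6 in endothelial cells, 4 in macrophages, 2 each in neutrophils and in T and NK cells, and 1 each in plasmacytoid and conventional dendritic cells.

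**Figure D1:**
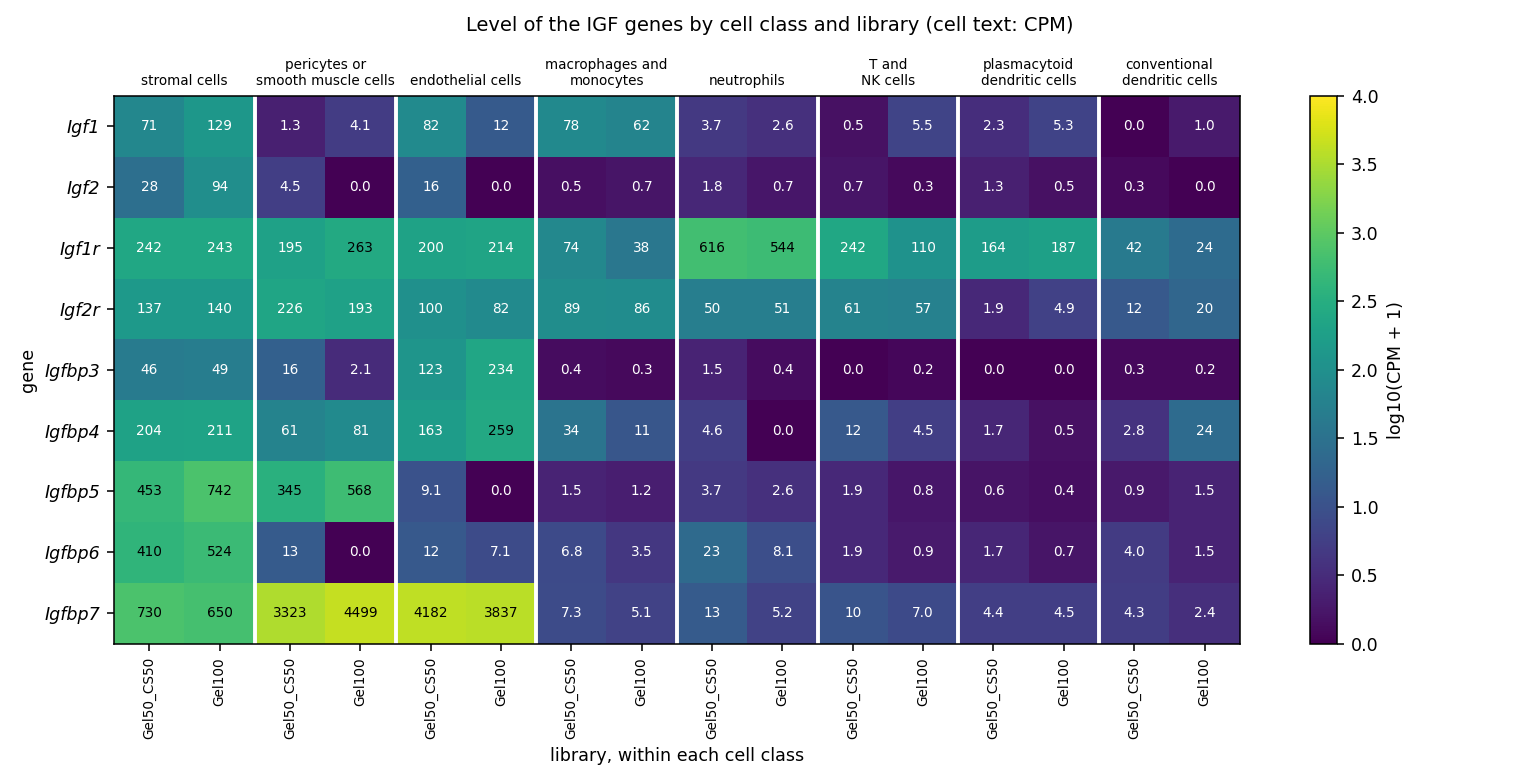
Level of each of the 9 genes (rows) in CPM, printed in the cell and coloured by log10(CPM + 1), in 8 cell classes (column pairs) with Gel50_CS50 left of Gel100. Igf2, Igfbp5 and Igfbp6 were highest in stromal cells, Igfbp7 reached 4182 CPM in Gel50_CS50 and 3837 CPM in Gel100 in endothelial cells, and of the classes shown Igf1r was highest in neutrophils, at 616 CPM in Gel50_CS50 and 544 CPM in Gel100.

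Which cells made the growth factors was read first. Igf1 RNA came mainly from macrophages and monocytes, which held 55.9% of its UMIs in Gel50_CS50 and 70.5% in Gel100, and from stromal cells, which held 27.9% in Gel50_CS50 and 25.05% in Gel100. Clusters without a name held 14.7% of the Igf1 UMIs in Gel50_CS50 and 2.38% in Gel100, and cluster 14 held 1353 of the 1413 such UMIs in Gel50_CS50. Cluster 14 scored highest for macrophages, so the macrophage share in Gel50_CS50 depends on its naming. With it counted as macrophages, an alternative chosen after seeing the data, the macrophage log2 ratio of Igf1 was 0.44. Igf2 RNA came almost wholly from stromal cells, with 89.5% of its UMIs in Gel50_CS50 and 94.9% in Gel100. Macrophages had 78.4 CPM of Igf1 in Gel50_CS50 and 62.2 CPM in Gel100, a log2 ratio of 0.33 (0.28 to 0.39) that stayed within 1.5-fold. Of these macrophages, 31.1% in Gel50_CS50 and 22.4% in Gel100 had an Igf1 UMI, against 1.64% of the neutrophils in Gel50_CS50 and 1.14% of those in Gel100. With cells thinned to 3000 UMIs, the shares were 13.7% in Gel50_CS50 and 10.6% in Gel100 for macrophages, against 0.933% in Gel50_CS50 and 0.954% in Gel100 for neutrophils. The median depth was 18420 UMIs in Gel50_CS50 and 16335 in Gel100 for macrophages, and 4339 in Gel50_CS50 and 4066.5 in Gel100 for neutrophils. Macrophages thus had Igf1 in a larger share of cells than neutrophils at equal depth.

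Igf1 was not spread evenly over the macrophages. Its level was highest in cluster 8, which was led by Gpnmb, Trem2 and Apoe, genes known from lipid-loaded macrophages, at 155 CPM in Gel50_CS50 and 221 CPM in Gel100. Next came cluster 2, led by Mrc1 and the complement genes C1qa, C1qb and C1qc, at 127 CPM in Gel50_CS50 and 94.0 CPM in Gel100, and cluster 1, led by Mrc1 and Ccl9, at 101 CPM in Gel50_CS50 and 95.9 CPM in Gel100. It was lowest in cluster 6, led by Vcan, F10 and F13a1, at 5.53 CPM in Gel50_CS50 and 2.37 CPM in Gel100. The clusters thus differed widely in both libraries, while the ratio between the libraries was above 0 in 5 of 9 clusters. Of these clusters, only cluster 16, led by Ptprm and C1qc, had an Igf1 ratio beyond 1.5-fold, at 27.1 CPM in Gel50_CS50 and 4.11 CPM in Gel100, which average 15.6 CPM. With both libraries weighted to the same cluster shares, the macrophage log2 ratio of Igf1 was 0.03.

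In stromal cells, Igf1 was at 70.9 CPM in Gel50_CS50 and 129 CPM in Gel100, a log2 ratio of -0.87 (-0.96 to -0.78), and was called lower. Yet an Igf1 UMI was found in 320 of 658 stromal cells of Gel50_CS50 and in 95 of 255 of Gel100. The 10 stromal cells with most Igf1 held 19.8% of its UMIs in Gel50_CS50 and 56.0% in Gel100. Igf2, the growth factor of fetal tissue, was at 28.1 CPM in Gel50_CS50 and 94.2 CPM in Gel100, a log2 ratio of -1.74 (-1.87 to -1.62), and was also called lower. Both differences lay in 1 of the 3 stromal clusters. Cluster 18, led by Col1a2, Col1a1 and Mgp, held 215 cells in Gel50_CS50 and 66 in Gel100. There Igf2 stood at 86.9 CPM in Gel50_CS50 and 413 CPM in Gel100, and Igf1 at 75.3 CPM in Gel50_CS50 and 482 CPM in Gel100. In cluster 12, led by Col1a2, Col3a1 and Col1a1, the direction of Igf1 was the opposite, at 70.0 CPM in Gel50_CS50 and 21.2 CPM in Gel100, while Igf2 stood at 2.49 CPM in Gel50_CS50 and 0.92 CPM in Gel100. Cluster 25, led by Col3a1, Dcn and Col1a2, had 61.4 CPM of Igf1 in Gel50_CS50 and 66.7 CPM in Gel100. Without cluster 18, the stromal log2 ratios turned to 1.39 for Igf1 and 1.30 for Igf2. The Igf2 value rests on few counts, since Igf2 in cluster 12 was far under the limit of 20 CPM. It is therefore not read as a direction.

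**Figure D2:**
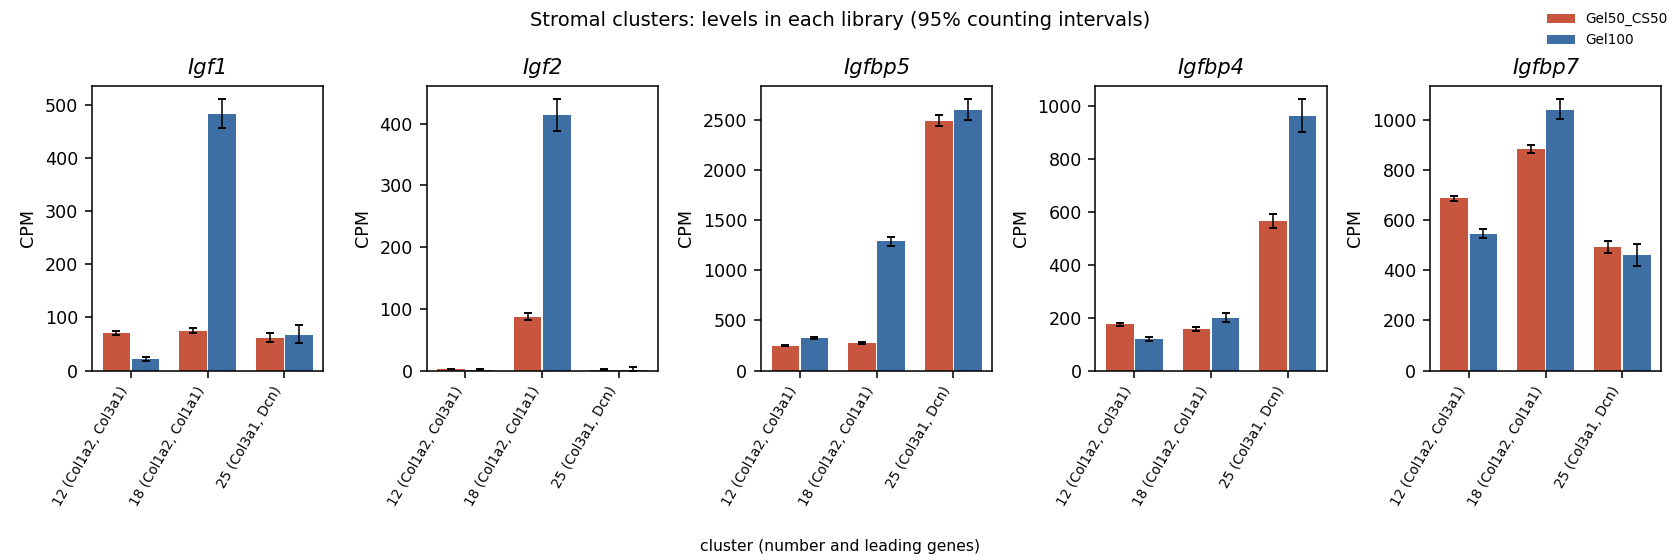
CPM of Igf1, Igf2, Igfbp5, Igfbp4 and Igfbp7 (panels) in the 3 stromal clusters, Gel50_CS50 (red) left of Gel100 (blue), with 95% counting intervals as bars. Igf1, Igf2 and Igfbp5 stood far lower in Gel50_CS50 in cluster 18, and Igfbp5 was highest in cluster 25 in both libraries, at 2493 CPM in Gel50_CS50 and 2601 CPM in Gel100.

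The stromal Igf2 UMIs also came from few cells. At least 1 Igf2 UMI was found in 92 of 658 stromal cells of Gel50_CS50 and in 40 of 255 of Gel100. The 10 cells with most Igf2 held 58.6% of its UMIs in Gel50_CS50 and 87.0% in Gel100, and the highest cell alone held 145 UMIs in Gel50_CS50 and 187 in Gel100. With those 10 cells left out of each library, an alternative chosen after seeing the data, the log2 ratio was -0.12 for Igf2, -0.31 for Igf1 and -0.60 for Igfbp5. In cluster 18, 23 cells of Gel50_CS50 and 15 of Gel100 had at least 10 Igf2 UMIs. Of these, 9 in Gel50_CS50 and 11 in Gel100 also had at least 10 Igf1 UMIs. The Igf2-positive stromal cells had 157 CPM of Igf1 in Gel50_CS50 and 577 CPM in Gel100, against 58.3 CPM in Gel50_CS50 and 57.6 CPM in Gel100 in the stromal cells without Igf2. H19, the imprinted RNA beside Igf2, stood at 364 CPM in Gel50_CS50 and 575 CPM in Gel100 in Igf2-positive stromal cells, against 107 CPM in Gel50_CS50 and 83.3 CPM in Gel100 in the others. Igfbp5 stood at 451 CPM in Gel50_CS50 and 1232 CPM in Gel100 in Igf2-positive cells, against 453 CPM in Gel50_CS50 and 663 CPM in Gel100 in the others. Igf2-positive cells were thus higher in Igf1 and H19 than the other stromal cells in both libraries. Igfbp5 lay above the others in Gel100 and level with them in Gel50_CS50. H19 as a whole stood at 258 CPM in Gel50_CS50 and 418 CPM in Gel100 in cluster 18. It was at 83.9 CPM in Gel50_CS50 and 75.3 CPM in Gel100 in cluster 12, and at 118 and 58.5 CPM in cluster 25. Whether the split holds within cluster 18 was not tested. Igf2 shares its locus with other transcripts: on mm10 it lies on the minus strand of chromosome 7 (142650766 to 142666816), and GENCODE places the antisense RNA Igf2os over it. Gm49394 and Mir483 overlap it on its own strand, and neither is among the genes counted in these files.

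**Figure D3:**
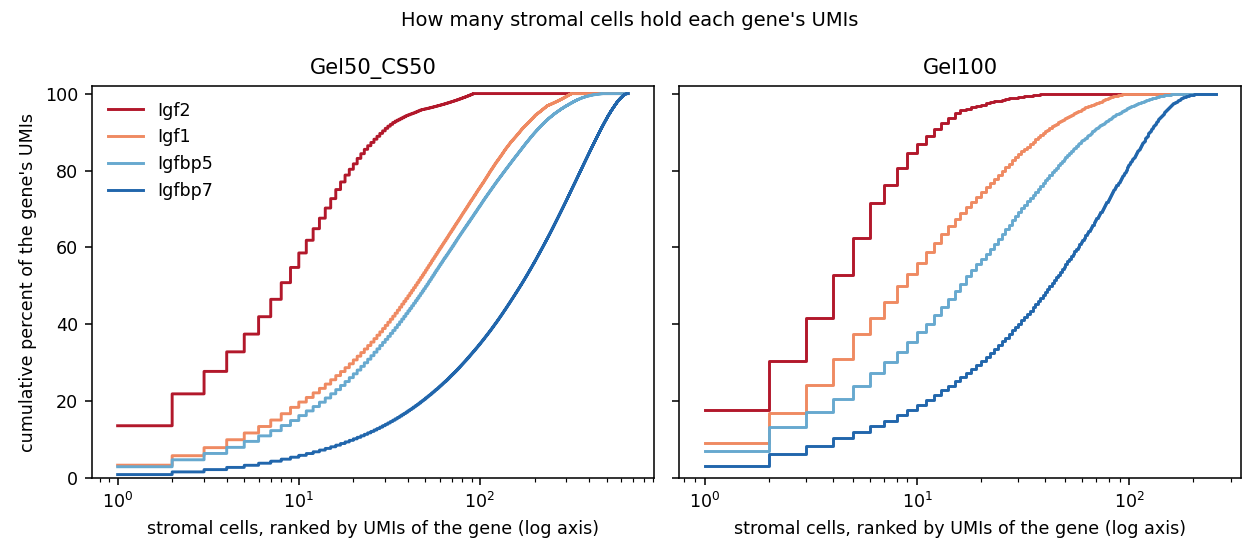
Cumulative percent of a gene's stromal UMIs (vertical axis) held by the highest cells (horizontal log axis, cells ranked by UMIs of the gene), for Gel50_CS50 on the left and Gel100 on the right. The 10 highest cells held 58.6% of the Igf2 UMIs in Gel50_CS50 and 87.0% in Gel100, but 5.96% of the Igfbp7 UMIs in Gel50_CS50 and 19.1% in Gel100.

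The type of cell that carried the signalling receptor Igf1r was read next. Of the classes compared between the libraries, neutrophils had the highest Igf1r level, at 616 CPM (4049 UMIs) in Gel50_CS50 and 544 CPM (1476 UMIs) in Gel100, a log2 ratio of 0.18 (0.09 to 0.27). This lead is relative to their total RNA. Stromal cells held the largest share of Igf1r UMIs, 41.0% in Gel50_CS50 and 27.7% in Gel100, against 18.2% and 15.1% in neutrophils. The median per cell was 11 Igf1r UMIs in Gel50_CS50 and 7 in Gel100 for stromal cells, and 1 in both libraries for neutrophils. Stromal cells had 242 CPM in Gel50_CS50 and 243 CPM in Gel100, endothelial cells 200 CPM in Gel50_CS50 and 214 CPM in Gel100, and plasmacytoid dendritic cells 164 CPM in Gel50_CS50 and 187 CPM in Gel100. Outside the compared classes, pericytes or smooth muscle cells had 195 CPM in Gel50_CS50 and 263 CPM in Gel100, and mast cells or basophils 390 CPM in Gel50_CS50 and 392 CPM in Gel100, from under 50 cells in at least 1 library. The intervals of stromal and endothelial cells overlapped in Gel100 and not in Gel50_CS50. None of the 4 compared classes named here was beyond 1.5-fold, although the endothelial log2 ratio was 1.09 with cell-by-cell gates and the neutrophil one 0.65 without cluster 7. Those gates took 551 Gel50_CS50 and 1098 Gel100 cells as endothelial. Only 53 of them in Gel50_CS50 and 54 in Gel100 lay in the endothelial cluster, so the gated values describe mostly other cells. Among neutrophils, Igf1r was highest in cluster 10, led by S100a9, S100a8, Hdc, G0s2 and Cxcr2, at 1102 CPM in Gel50_CS50 and 1001 CPM in Gel100. The cluster of gamma-delta T cells, known from barrier tissues, stood at a like level, at 1138 CPM in Gel50_CS50 and 982 CPM in Gel100, and the counting intervals of these 2 clusters overlapped in both libraries. The other large neutrophil clusters had 386 CPM in Gel50_CS50 and 543 CPM in Gel100 (cluster 7, with 38 Gel100 cells), and 390 CPM in Gel50_CS50 and 320 CPM in Gel100 (cluster 11). The neutrophil share with an Igf1r UMI was 55.5% in Gel50_CS50 and 48.5% in Gel100 at 3000 UMIs per cell, against 7.69% of NK cells in Gel50_CS50 and 4.61% in Gel100.

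Igf1r was called higher in Gel50_CS50 in macrophages and in T and NK cells. Macrophages had 73.8 CPM in Gel50_CS50 (5046 UMIs) and 37.8 CPM in Gel100 (2469 UMIs), a log2 ratio of 0.96 (0.90 to 1.03). The ratio was above 0 in 9 of 9 macrophage clusters and beyond 1.5-fold in 2 of them, cluster 1 at 91.0 CPM in Gel50_CS50 and 47.0 CPM in Gel100 and cluster 6 at 76.5 CPM in Gel50_CS50 and 40.4 CPM in Gel100. With both libraries weighted to the same cluster shares, the macrophage log2 ratio was 0.64. T and NK cells had 242 CPM in Gel50_CS50 and 110 CPM in Gel100, a log2 ratio of 1.13 (1.02 to 1.25). Within that class, T cells outside the gamma-delta cluster had 95.1 CPM in Gel50_CS50 and 34.2 CPM in Gel100, and NK cells had 54.0 CPM in Gel50_CS50 and 21.4 CPM in Gel100. The gamma-delta cluster, whose higher levels are given above, held 89 cells in Gel50_CS50 and 101 in Gel100. The whole class held 505 cells in Gel50_CS50 and 1086 in Gel100. The log2 ratio of the class was 0.48 at equal cluster shares, which is within 1.5-fold. Conventional dendritic cells had 41.8 CPM in Gel50_CS50 and 23.9 CPM in Gel100, and their ratio of 0.81 (0.43 to 1.19) was not wholly beyond 1.5-fold. Neutrophil markers summed to 0.431% of their neutrophil level in the macrophages of Gel50_CS50 and to 0.343% in those of Gel100, with 0 of 8 markers at 0. Their part in the macrophage ratio was not tested.

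Igf2r, the clearing receptor, stayed within 1.5-fold in each class where it was measured. It was at 137 CPM in Gel50_CS50 and 140 CPM in Gel100 in stromal cells, at 89.0 CPM in Gel50_CS50 and 86.3 CPM in Gel100 in macrophages, and at 60.8 CPM in Gel50_CS50 and 56.6 CPM in Gel100 in T and NK cells. Neutrophils had 50.1 CPM in Gel50_CS50 and 50.8 CPM in Gel100, and endothelial cells 99.8 CPM in Gel50_CS50 and 82.0 CPM in Gel100, with intervals that spanned 0. Plasmacytoid dendritic cells were at 1.90 CPM in Gel50_CS50 and 4.91 CPM in Gel100, so they carried Igf1r almost without Igf2r. Igf2r lies on mm10 chromosome 17 (12682406 to 12769664, minus strand), where the antisense RNA Airn overlaps it.

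**Figure D4:**
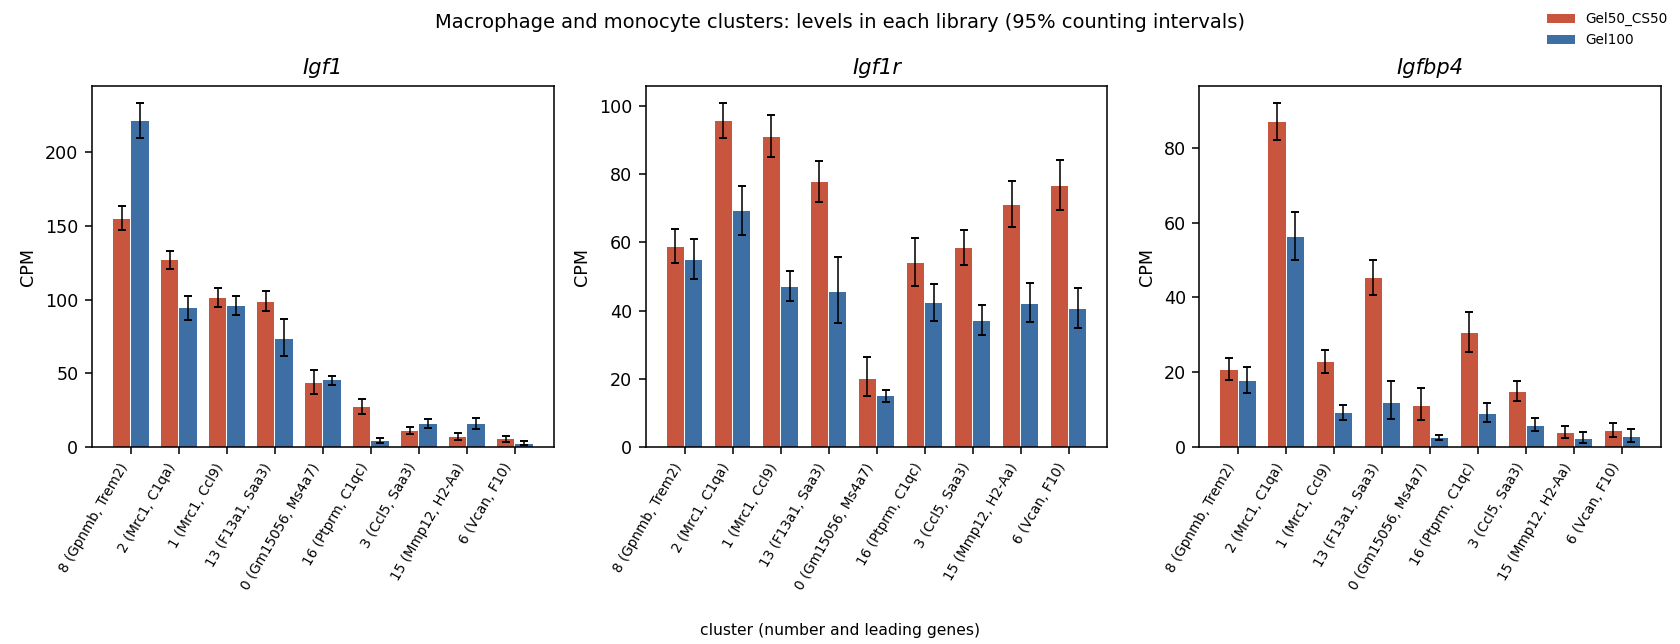
CPM of Igf1, Igf1r and Igfbp4 (panels) in the 9 macrophage and monocyte clusters, ordered by Igf1 level, Gel50_CS50 (red) left of Gel100 (blue), with 95% counting intervals as bars. Igf1r and Igfbp4 stood higher in Gel50_CS50 in each of the 9 clusters, while Igf1 stood higher in 5 of them.

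Of the binding proteins, Igfbp4, which restrains growth factor action until the protease Pappa cuts it, was the only binding protein measured in macrophages. It was at 33.9 CPM (2320 UMIs) in Gel50_CS50 and 10.7 CPM (696 UMIs) in Gel100, a log2 ratio of 1.67 (1.55 to 1.79), and was called higher. The ratio was above 0 in 9 of 9 macrophage clusters and beyond 1.5-fold in 5. Cluster 2 had most, at 86.9 CPM in Gel50_CS50 and 56.2 CPM in Gel100, and cluster 13 had 45.1 CPM in Gel50_CS50 and 11.8 CPM in Gel100. At equal cluster shares the class ratio was 0.96. Stromal markers stood at 0.377% of their stromal level in the macrophages of Gel50_CS50 and at 0.193% in those of Gel100. Of these, 0 of 8 were at 0, and their part in the macrophage ratio was not tested. Stromal cells themselves had 204 CPM of Igfbp4 in Gel50_CS50 and 211 CPM in Gel100, a log2 ratio of -0.04 (-0.11 to 0.02).

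The promoters of 3 of the 4 genes measured in macrophages are shown. They were chosen because Igf1r and Igfbp4 stood higher together in each macrophage cluster while Igf1 did not. The windows run from 250 bases before to 50 bases after the gene start in RefSeq on GRCm38.p6, and all 9 genes matched that table. Capitals mark every match, on either strand, to the motifs searched. These were the letters TATAAA of the core promoter element, the letters GGGCGG that Sp1 is known to bind, the letters TGANTCA that AP-1 is known to bind, and the letters GAGGAA at the core of sites for Ets factors. The first is on the plus strand at chr10:87860861-87861160, the second on the plus strand at chr7:67952007-67952306, and the third on the plus strand at chr11:99040994-99041293.
Igf1: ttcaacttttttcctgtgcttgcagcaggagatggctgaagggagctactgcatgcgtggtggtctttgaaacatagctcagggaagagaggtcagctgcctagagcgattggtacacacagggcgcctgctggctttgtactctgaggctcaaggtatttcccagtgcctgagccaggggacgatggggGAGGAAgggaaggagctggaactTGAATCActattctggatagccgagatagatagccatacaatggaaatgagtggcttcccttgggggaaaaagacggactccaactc
Igf1r: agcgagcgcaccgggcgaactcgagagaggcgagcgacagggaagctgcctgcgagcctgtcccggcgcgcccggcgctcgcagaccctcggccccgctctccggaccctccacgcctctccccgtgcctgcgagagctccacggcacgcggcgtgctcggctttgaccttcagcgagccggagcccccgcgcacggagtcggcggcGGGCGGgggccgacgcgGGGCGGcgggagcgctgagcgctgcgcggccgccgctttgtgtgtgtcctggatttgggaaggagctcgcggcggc
Igfbp4: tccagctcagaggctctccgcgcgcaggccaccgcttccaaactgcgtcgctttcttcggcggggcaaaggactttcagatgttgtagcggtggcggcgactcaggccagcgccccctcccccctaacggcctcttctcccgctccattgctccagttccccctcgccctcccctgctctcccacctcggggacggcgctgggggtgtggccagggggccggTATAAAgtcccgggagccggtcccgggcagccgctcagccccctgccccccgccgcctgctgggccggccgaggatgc
The Igf1 window held 1 TGANTCA and 1 GAGGAA match and had a GC content of 52.3%, near the median of 52.7% over 32851 promoters. The Igf1r window had a GC content of 76.0%, 48 CpG dinucleotides and 2 GGGCGG matches, and the Igfbp4 window had 71.3%, 27 CpG dinucleotides and 1 TATAAA match. Over all promoters, 13.6% held TATAAA, 35.7% GGGCGG, 7.81% TGANTCA and 28.3% GAGGAA. The window of Igf2r, also measured in macrophages but not printed, had a GC content of 70.7%, 34 CpG dinucleotides and 3 GGGCGG matches. Its ratio was above 0 in 5 of 9 macrophage clusters, as for Igf1. These matches describe the windows only. In GENCODE vM21 on mm10, Igf1 spans 87858265 to 87937042 on chromosome 10, Igf1r 67952827 to 68233668 on chromosome 7 and Igfbp4 99041244 to 99054392 on chromosome 11. The RefSeq start of Igf1r lies upstream of the GENCODE gene, and that of Igf1 inside it. Igf1 is overlapped by the antisense RNA Igf1os, and no annotated gene overlaps Igf1r or Igfbp4.

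The remaining binding proteins belonged to stromal and vascular cells. Igfbp5, a matrix-bound protein of bone, was at 453 CPM in Gel50_CS50 and 742 CPM in Gel100 in stromal cells, a log2 ratio of -0.71 (-0.75 to -0.67), and was called lower. Its level was highest in cluster 25, at 2493 CPM in Gel50_CS50 and 2601 CPM in Gel100, where the libraries lay close together. In cluster 18 it was at 272 CPM in Gel50_CS50 and 1290 CPM in Gel100, and without that cluster the stromal log2 ratio was -0.13. Cluster 25 thus had the highest level relative to its total RNA in both libraries, while cluster 18 held the difference. Cluster 25 held 78 cells in Gel50_CS50 and 25 in Gel100, against 215 and 66 in cluster 18. In cluster 25 Igfbp4 stood at 566 CPM in Gel50_CS50 and 961 CPM in Gel100, above the other stromal clusters. Igfbp6, which prefers Igf2, was at 410 CPM in Gel50_CS50 and 524 CPM in Gel100 in stromal cells, a log2 ratio of -0.35 (-0.40 to -0.31). Igfbp3, the main carrier in blood, was at 45.6 CPM in Gel50_CS50 and 49.4 CPM in Gel100 in stromal cells, with a log2 ratio of -0.11 (-0.25 to 0.03).

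Igfbp7, a low-affinity member of blood vessels, was the most abundant of the 9 genes. Pericytes or smooth muscle cells had 3323 CPM in Gel50_CS50 and 4499 CPM in Gel100, from 51 cells in Gel50_CS50 and 28 in Gel100, too few to compare. Endothelial cells had 4182 CPM in Gel50_CS50 and 3837 CPM in Gel100, a log2 ratio of 0.12 (0.05 to 0.20) that was 2.08 with cell-by-cell gates and 0.71 with each cell weighted equally. Stromal cells had 730 CPM in Gel50_CS50 and 650 CPM in Gel100, a ratio of 0.17 (0.13 to 0.20). The vascular levels were several-fold over the stromal ones in both libraries. Pericytes or smooth muscle cells also carried Igfbp5, at 345 CPM in Gel50_CS50 and 568 CPM in Gel100, and Igf2r, at 226 CPM in Gel50_CS50 and 193 CPM in Gel100. On mm10, Polr2b and the antisense RNA Gm34648 overlap Igfbp7 on the other strand.

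The endothelial values of the other genes rest on few cells and unequal depth. Endothelial cells had a median of 18622 UMIs in Gel50_CS50 and 2015.5 in Gel100, and the summed stromal markers stood at 2803 CPM in Gel50_CS50 and 58.8 CPM in Gel100, with 0 of 8 markers at 0. The part of these in the ratios below was not tested. Igf1 was at 82.3 CPM (108 UMIs in 7 cells) in Gel50_CS50 and 12.5 CPM (7 UMIs in 5 cells) in Gel100, a log2 ratio of 2.72 (1.63 to 4.07), and 1 Gel50_CS50 cell held 56 of the 108 UMIs. Igfbp3 was at 123 CPM (161 UMIs) in Gel50_CS50 and 234 CPM (131 UMIs) in Gel100, a ratio of -0.93 (-1.27 to -0.59), and 1 Gel100 cell held 59 of the 131 UMIs. With each cell weighted equally, the log2 ratios turned to -0.29 for Igf1 and 1.37 for Igfbp3. Igfbp4 was at 163 CPM in Gel50_CS50 and 259 CPM in Gel100, with a ratio of -0.67 (-0.98 to -0.35) that was not wholly beyond 1.5-fold. Its ratio was -0.06 with each cell weighted equally, and turned to 1.504 with cell-by-cell gates, which mostly took cells outside the endothelial cluster.

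**Figure D5:**
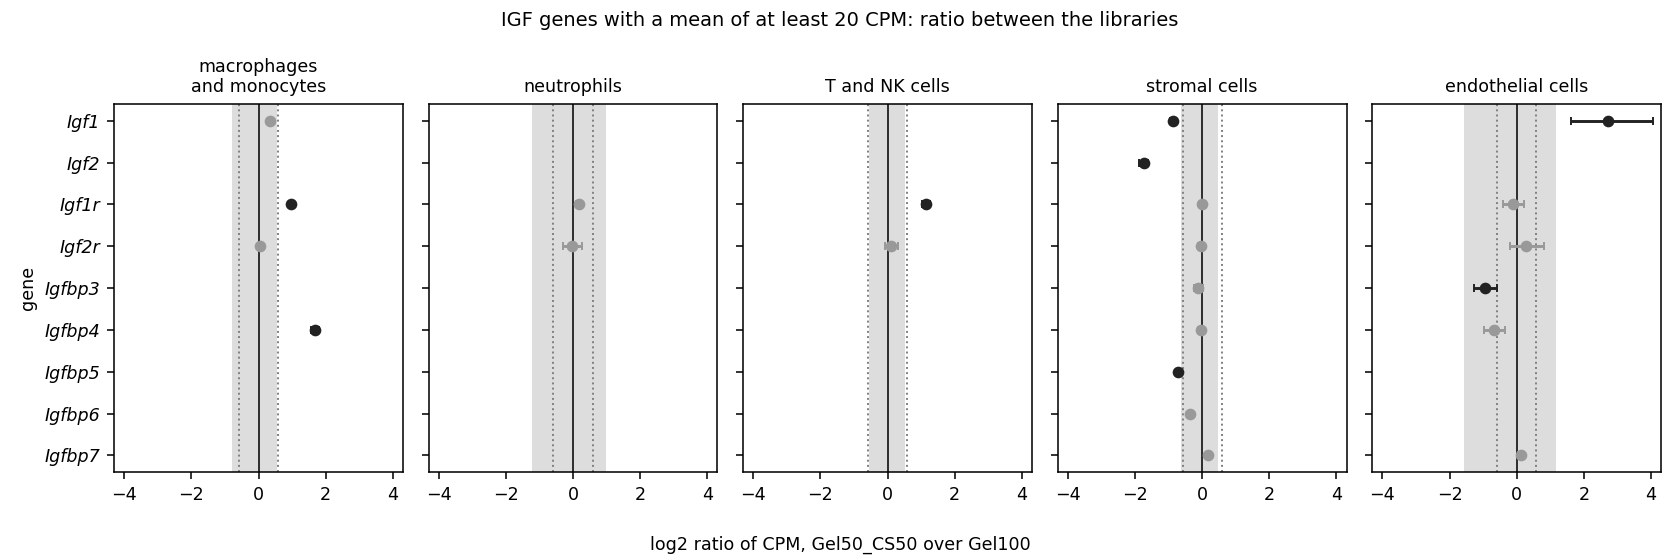
Log2 ratio of CPM, Gel50_CS50 over Gel100 (horizontal axis), of each gene with a mean of at least 20 CPM in 5 cell classes (panels), with its 95% counting interval. Black points lie wholly beyond 1.5-fold (dotted lines), grey points do not, and the grey band holds the central 95% of all measured genes of the class. Igf1r and Igfbp4 in macrophages, Igf1r in T and NK cells, and Igf1, Igf2 and Igfbp5 in stromal cells lay outside the band, as did Igf1 in endothelial cells.

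How many of the measured genes passed the 1.5-fold rule is set here beside all genes measured in the class, as a description, since the genes were chosen on these values. In macrophages, 2 of 4 were higher and 0 lower in Gel50_CS50, and of all 6133 genes 1.55% were higher and 3.44% lower. In stromal cells, 0 of 9 were higher and 3 lower (Igf1, Igf2 and Igfbp5), and of all 7008 genes 0.899% were higher and 1.88% lower. In T and NK cells, 1 of 2 was higher, where 0.724% of all genes were higher and 1.09% lower. In neutrophils 0 of 2 passed, where 3.71% of all genes were higher and 5.86% lower. The 1 gene measured in dendritic cells, Igf1r, passed in neither class, where 0.954% were higher and 0.453% lower in the plasmacytoid class and 1.56% higher and 2.63% lower in the conventional class. In endothelial cells 1 of 6 was higher and 1 lower, where 1.78% of all genes were higher and 3.51% lower. The median log2 ratio of the measured members was 0.65 in macrophages and -0.11 in stromal cells, beside medians of 0.00043 in macrophages and -0.02 in stromal cells over all genes.

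The other 36 genes listed for the pathway were read in the same way. Of all measured genes, 0.899% were higher and 1.88% lower in stromal cells, and 1.55% higher and 3.44% lower in macrophages. In endothelial cells 1.78% were higher and 3.51% lower. The counts below are a description and are not read as a result about the pathway. Of 24 measured in stromal cells, 0 were higher and 2 lower in Gel50_CS50, both secreted proteases: Htra3 at 226 CPM in Gel50_CS50 and 372 CPM in Gel100 (log2 ratio -0.72, -0.78 to -0.67), and Adamts1 at 94.7 CPM in Gel50_CS50 and 151 CPM in Gel100 (-0.68, -0.76 to -0.59). Of 14 measured in macrophages, 0 were higher and 1 lower: Igf2bp2, an RNA-binding protein of Igf2 mRNA, at 21.1 CPM in Gel50_CS50 and 50.9 CPM in Gel100 (-1.27, -1.36 to -1.18). The 10 measured in neutrophils, 15 in T and NK cells, 14 in plasmacytoid and 15 in conventional dendritic cells held none beyond 1.5-fold. Of 17 measured in endothelial cells, Adamts1 was higher, at 311 CPM in Gel50_CS50 and 116 CPM in Gel100, and so was H19, at 95.2 CPM in Gel50_CS50 and 3.57 CPM in Gel100, where 1 Gel50_CS50 cell held 117 of the 125 H19 UMIs. Genes of the receptor's signal such as Irs1, Pik3ca, Akt1 and Foxo3 were among those not beyond 1.5-fold in stromal cells or macrophages where measured, as was the insulin receptor Insr, at 53.5 CPM in Gel50_CS50 and 39.3 CPM in Gel100 in macrophages. Ghr, the growth hormone receptor upstream of Igf1, was at 248 CPM in both libraries in stromal cells.

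With all kept cells of a library pooled, the members also took on the class shares, since stromal cells made up 9.13% of Gel50_CS50 and 3.37% of Gel100. Igfbp7 was then at 272 CPM in Gel50_CS50 and 115 CPM in Gel100, while its stromal log2 ratio was 0.17. Pooled Igfbp6 was at 114 CPM in Gel50_CS50 and 58.4 CPM in Gel100, and pooled Igfbp3 at 13.8 CPM in Gel50_CS50 and 6.74 CPM in Gel100. Pooled Igf1 was at 66.6 CPM in Gel50_CS50 and 54.8 CPM in Gel100, and pooled Igf2 at 8.25 CPM in Gel50_CS50 and 10.5 CPM in Gel100. In such pooled values, fewer cells of a type and less RNA per cell cannot be told apart.

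The genes most like each member over 14 points (7 classes in 2 libraries) were ranked by Pearson r of log2(CPM + 1), among 7132 genes, as a description: the points of a library share its depth and its free RNA. Igf1 was most like Gas6 (r = 0.96), and Igf1r most like Rnf144a (0.95). Igf2 was most like Mfap4 (0.98), Igf2r like Ap3s1 (0.95), Igfbp3 like Piezo2 (0.996) and Igfbp4 like Pkd2 (0.96). Igfbp5 was most like Scara5 (0.99), Igfbp6 like Prrx2 (0.97) and Igfbp7 like Tm4sf1 (0.997).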

How the data were processed

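The deposited values are raw UMI counts. Per the file headers, Cell Ranger 6.0.2 made them, and mm10 is named in the submitters' processing notes. Neither the annotation release nor the handling of intronic reads is stated. The libraries held 7515 barcodes and 150311308 UMIs (Gel50_CS50), and 7845 and 108847835 (Gel100), and none was under 500 UMIs. The 9 genes and all lists were chosen with earlier results of these data known.

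Cells were kept with at least 200 genes, 500 UMIs and under 20% mitochondrial counts. Scrublet in scanpy 1.11.5 (rate 0.06) removed 192 (2.60%) doublets in Gel50_CS50 and 210 (2.70%) in Gel100. Cells were clustered on 3000 variable genes without the IGF genes (30 components, 15 neighbours, Leiden resolution 1.0, leidenalg 0.10.2), with no integration. Clusters took the class of their highest marker score over the 25th percentile cluster, with a score of at least 1.5, a lead of 0.5, at least 3 markers in 10% of cells and a median of 1000 UMIs. They stayed unnamed where the 10 leading genes held 2 markers of another class or more of it than of their own. These limits and this reference were adopted after seeing the data, and each class name means cells like that type. Cluster 14 (Stfa3, Arg1, Cxcl3), with 436 Gel50_CS50 and 23 Gel100 cells, stayed unnamed since Arg1 stands on another list, although its highest score was for macrophages. Classes were compared with at least 50 cells in both libraries.

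UMIs were summed per class and library and scaled to CPM. CPM has exact Poisson, ratios exact conditional binomial and shares exact Clopper-Pearson intervals at 95%, for counting error only, and the code was checked on simulated counts. No test was run, since each group is 1 library. Of the feature identifiers, 99.6% were found in GENCODE vM21. All 9 members were named, and genes of the other list where beyond 1.5-fold, with some others chosen after their values were seen. Alternatives were cell-by-cell gates, other clustering settings, kept doublets, thinning to 3000 UMIs (leaving out 325 Gel50_CS50 and 1625 Gel100 cells), equal weights per cell or cluster, median ratio scaling, another level limit and leaving out each cluster.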

Additional observations from a re-analysis of the deposited data

Results flagged for a closer look

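Igf1 pointed in opposite directions in 2 classes under the same contrast. Its log2 ratio, Gel50_CS50 over Gel100, was 2.72 in endothelial cells and -0.87 in stromal cells. The difference between the classes was not tested, since each group is 1 library. The endothelial value rests on 108 UMIs in Gel50_CS50 and 7 in Gel100, and 1 cell held 51.9% of the Gel50_CS50 UMIs. The stromal value was 1.39 without cluster 18, and 10 stromal cells held 56.0% of its Gel100 UMIs. With each cell weighted equally both ratios were negative, at -0.29 in endothelial and -1.02 in stromal cells. The opposite directions thus did not hold under that setting.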

How the results depend on the processing

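No paired analysis was possible because each group is 1 library. In macrophages, Igf1r (0.64 to 1.08), Igfbp4 (0.96 to 1.86) and Igf1 (0.03 to 0.56) kept their direction under all 18 alternatives run. Igf2r there ranged from -0.05 to 0.17 and kept it under 16. Igf1r in T and NK cells kept its direction under 12, at 0.48 to 1.49. The lowest of these, at equal cluster shares, was within 1.5-fold. Stromal Igfbp5 kept its direction under 12, at -1.14 to -0.13. Without cluster 18, stromal Igf1 turned to 1.39 and Igf2 to 1.30, although Igf2 in cluster 12 was far under 20 CPM. In endothelial cells, equal weights per cell turned Igf1 to -0.29 and Igfbp3 to 1.37. Cell-by-cell gates gave endothelial ratios of 1.38 for Igfbp3, 1.504 for Igfbp4, 2.08 for Igfbp7 and 1.09 for Igf1r. Those gates took 551 Gel50_CS50 and 1098 Gel100 cells, of which 53 in Gel50_CS50 and 54 in Gel100 lay in the endothelial cluster. Without cluster 12, stromal Igfbp4 was -0.73 and Igfbp3 -0.64. The cause was not tested. The count of members beyond 1.5-fold in macrophages, 2 as reported, was 1 without cluster 2 and 1 at a limit of 50 CPM. In stromal cells, 3 as reported and all lower, it was 1 without cluster 18. None of the 3 lower calls remained there, since Igf1 and Igf2 turned positive and Igfbp5 was -0.13. The stromal count was 2 with cells thinned to 3000 UMIs, 2 with equal weights per cell and 4 without cluster 12. The other pathway genes numbered 5 in macrophages with no limit on the level and 0 at 50 CPM, against 1 as reported. In stromal cells, against 2 as reported, they numbered 0 with cells thinned to 3000 UMIs, 1 with equal weights per cell, 1 with median ratio scaling, 4 without cluster 12 and 1 without cluster 18. Of the other alternatives for single genes, 96 moved by more than their counting interval and 179 did not. The endothelial values rest on 57 cells in Gel50_CS50 and 64 in Gel100, and genes averaging under 20 CPM in a class were not compared there.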

Other observations

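Some members appeared in small groups of cells outside the comparisons. Igfbp4 in conventional dendritic cells had 10 UMIs in Gel50_CS50 and 99 UMIs in Gel100, and it lay in cluster 19, led by Ccr7, Il12b and Ccl22, at 4.16 CPM in Gel50_CS50 and 52.8 CPM in Gel100. Of the Gel100 UMIs, 1 cell held 34.3%. Igfbp7 in cluster 22, T cells led by Il2ra, Tox and Ctla4, was at 31.8 CPM (27 UMIs) in Gel50_CS50 and 33.0 CPM (26 UMIs) in Gel100, in 22.1% of its cells in Gel50_CS50 and 19.2% in Gel100. Igf1 in T and NK cells had 3 UMIs in Gel50_CS50 and 59 UMIs in Gel100, where 1 cell held 39 of them.

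Cluster 14, the unnamed cluster led by Stfa3, Arg1 and Cxcl3, carried 122 CPM of Igf1 in Gel50_CS50 and 96.4 CPM in Gel100, and 143 CPM of Igf2r in Gel50_CS50 and 133 CPM in Gel100, close to the Igf1-rich macrophage clusters. Its Igfbp4 was at 5.84 CPM in Gel50_CS50 and at 0 UMIs in Gel100, where it held 23 cells. Mast cells or basophils, 36 in Gel50_CS50 and 14 in Gel100, had 390 CPM of Igf1r (48 UMIs) in Gel50_CS50 and 392 CPM (18 UMIs) in Gel100, and no Igf1, Igf2 or Igf2r UMI was found in them.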
